A study of Mus musculus with 13 samples.

Results

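The genes described here build, attach and trim N-glycans, the sugar trees that are linked to asparagine in secreted and surface proteins. They are 38 genes taken by name from a list of the pathway, of 55536 genes in the RNA-seq tables. They fall into 12 genes of lipid-linked oligosaccharide assembly, 10 genes of the oligosaccharyltransferase, 8 genes of glucose and mannose trimming and 8 genes of branching and capping. All 38 were found by symbol, each under a single Ensembl identifier.

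The libraries come from neutrophils isolated fresh from the bone marrow of wildtype mice, a short-lived white blood cell of innate defence. Cells in HBSS buffer received extracellular RNase A for 10 min at 37 °C (exRNaseA, n = 2 libraries) or a mock treatment (mock, n = 2 libraries), and polyadenylated RNA was sequenced. One protocol text, which names RNase A, is given for all 4 libraries, so each was assigned by its own title and treatment label. Neither age nor sex of the mice is given in the sources used here. The series calls the libraries biological replicates without naming separate animals, so p-values measure the spread between these 4 libraries. The same series holds 9 small RNA libraries of neutrophils and of the HOXB8 cell line, 1 per group, from input RNA or from RNA purified for its glycans.

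N-glycans are first assembled on the membrane lipid dolichol in the endoplasmic reticulum (ER), sugar by sugar. The finished tree is moved as a whole to asparagine by the oligosaccharyltransferase (OST). Glucosidases and mannosidases then cut it back, which also reports protein folding, and Golgi enzymes rebuild it with new branches, galactose, fucose and sialic acid. Many neutrophil granule proteins and integrins carry N-glycans. PNGase F, an enzyme that removes N-glycans, was applied to 1 of the small RNA libraries.

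The 4 libraries held between 20661683 and 23722494 expected counts. Neutrophil genes dominated, with the 15 listed markers at a summed 288672 and 275571 TPM (transcript abundance corrected for length and scaled to the same total in each library) in exRNaseA libraries, against 287476 and 288344 TPM in mock libraries, and 0 of the 15 were called, though 11 had an unadjusted p under 0.05, against 901 of all 14184 tested genes. S100a9, an abundant calcium-binding protein of neutrophils, had 124258 and 117292 TPM in exRNaseA libraries, against 124322 and 125568 TPM in mock libraries (log2 change -0.08, Benjamini-Hochberg adjusted p = 0.288, edgeR). Its groups did not overlap. In counts scaled by library size, 12 of the 15 neutrophil markers had no overlap, 10 lower and 2 higher in exRNaseA libraries, against 35.7% of all tested genes, 2556 lower and 2505 higher. Transcripts of other cells were present: the 10 B cell and plasma cell markers summed to 3548 and 3684 TPM in exRNaseA libraries, against 3588 and 3514 TPM in mock libraries. Igkc, an antibody light chain gene of those highly secretory cells, had 1632 and 1762 TPM in exRNaseA libraries, against 1681 and 1591 TPM in mock libraries. The 9 erythroid markers found in the tables summed to between 4579 and 4790 TPM, 10 monocyte and macrophage markers to between 1025 and 1043 TPM, 10 eosinophil, basophil and mast cell markers to between 442 and 470 TPM, and 8 stem and progenitor markers to between 114 and 128 TPM. A single gene made up most of the monocyte and macrophage sum, of the eosinophil, basophil and mast cell sum and of the stem and progenitor sum. These genes were Ly6c2 at 952 to 976 TPM, Prg2 at 396 to 423 TPM and Myb at 92.6 to 101 TPM. Csf1r, the next monocyte and macrophage gene, had 28.3 to 35.3 TPM. The 10 T and NK cell markers summed to between 83.8 and 89.2 TPM and the 8 megakaryocyte markers to between 19.03 and 24.27 TPM. Of every marker list 0 genes were called. None of the listed marker genes found in the tables was at 0 in all 4 libraries. The levels below are those of the whole preparation, and how much of each came from other cells was not tested. In bulk RNA, fewer cells of a type and less RNA per cell cannot be told apart.

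Most OST genes stood above the assembly genes: 8 of the 10 in exRNaseA library 1, and 9 of the 10 in each other library, were above the highest of the 12 assembly genes. Tusc3, at a mean of 4.65 TPM, lay within the assembly range. Of the 38 genes, 37 had a mean of 1 TPM or more over the 4 libraries, 23 had 10 TPM or more, and the median was 14.99 TPM. Among all genes above 0 TPM the median gene of the 38 stood at percentile 75.5, and the assembly genes at percentiles 55.9 to 68.9. TPM is a level per transcript length, so genes can be compared with each other on it. The OST genes summed to 333 and 349 TPM in exRNaseA libraries, against 348 and 338 TPM in mock libraries. The trimming genes summed to 199 and 193 TPM in exRNaseA libraries, against 197 and 197 TPM in mock libraries. The branching and capping genes summed to 172 and 170 TPM in exRNaseA libraries, against 172 and 170 TPM in mock libraries. The 12 assembly genes together reached 71.4 and 63.0 TPM in exRNaseA libraries, against 63.5 and 66.8 TPM in mock libraries, which is between 18.1% and 21.5% of the OST sum. The sums of exRNaseA and mock libraries overlapped in all 4 roles.

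**Figure D1:**
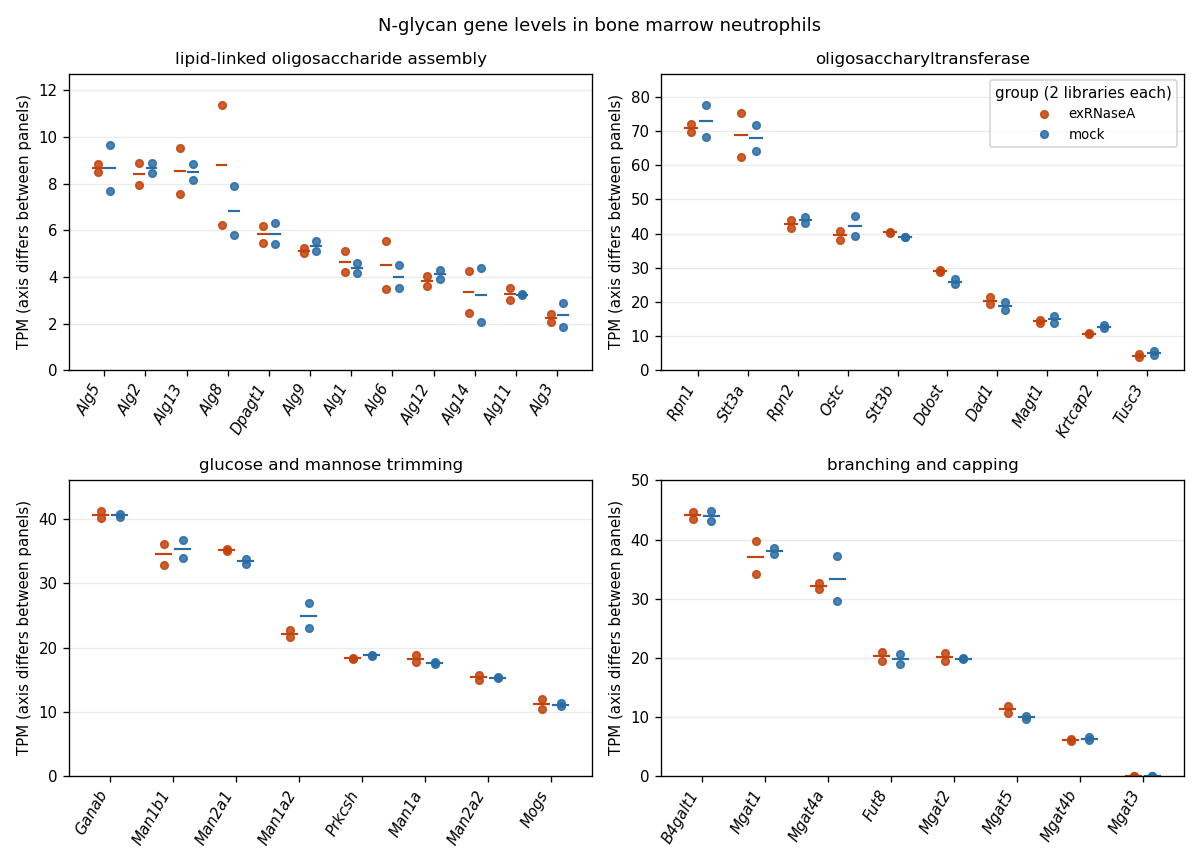
TPM of the 38 N-glycan genes in each library, 1 panel per role and genes in order of mean level, with 2 exRNaseA points left of 2 mock points and short lines at the group means. The assembly genes sit at or below 11.4 TPM in every library, each panel having its own axis, while Rpn1 and Stt3a of the oligosaccharyltransferase lie between 62.5 and 77.5 TPM and Mgat3 lies at 0.05 TPM or below.

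The assembly genes were the lowest role. Each of the 12 had a mean between 2.31 and 8.67 TPM, under the mean of every trimming gene. Alg10b, which adds the last glucose and stands outside the 12 listed genes, was higher, at 13.36 and 12.83 TPM in exRNaseA libraries, against 12.89 and 12.53 TPM in mock libraries, above Mogs of the trimming group in each. It is named here after its values were seen. Within the 12 genes the order held in 3 of 4 libraries. In exRNaseA library 1 Alg8 stood at 11.4 TPM, above Mogs at 10.4 TPM. Dpagt1, which starts the chain by putting a phosphorylated N-acetylglucosamine on dolichol, had 5.45 and 6.20 TPM in exRNaseA libraries, against 5.39 and 6.31 TPM in mock libraries. Its groups overlapped fully. Alg13 and Alg14, the paired subunits that add the next N-acetylglucosamine, differed in level. Alg13 had 9.54 and 7.56 TPM in exRNaseA libraries, against 8.15 and 8.83 TPM in mock libraries. Alg14 had 4.24 and 2.45 TPM in exRNaseA libraries, against 2.07 and 4.37 TPM in mock libraries. Alg13 was above Alg14 in every library, by 2.02- to 3.94-fold.

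The mannosyltransferases came next in the pathway and were as low. Alg1, which adds the first mannose, had 4.19 and 5.11 TPM in exRNaseA libraries, against 4.59 and 4.18 TPM in mock libraries. Alg2, which extends it on the cytosolic face, was higher, at 7.93 and 8.89 TPM in exRNaseA libraries, against 8.89 and 8.45 TPM in mock libraries. Alg11, which finishes the cytosolic steps, had 3.53 and 3.03 TPM in exRNaseA libraries, against 3.21 and 3.28 TPM in mock libraries. Inside the ER the mannoses are added by Alg3, Alg9 and Alg12. Alg3 was the lowest assembly gene, at 2.07 and 2.4 TPM in exRNaseA libraries, against 1.86 and 2.89 TPM in mock libraries. Alg9 had 5.04 and 5.22 TPM in exRNaseA libraries, against 5.13 and 5.52 TPM in mock libraries. Alg12 had 4.05 and 3.60 TPM in exRNaseA libraries, against 4.29 and 3.93 TPM in mock libraries. In all of these genes the exRNaseA and mock libraries overlapped on the TPM scale.

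Alg5 had the highest mean of the 12 assembly genes, below that of Alg10b. Alg5, which makes the dolichol-linked glucose donor, had 8.50 and 8.84 TPM in exRNaseA libraries, against 9.65 and 7.68 TPM in mock libraries. Alg6, which adds the first glucose, had 5.52 and 3.50 TPM in exRNaseA libraries, against 4.52 and 3.51 TPM in mock libraries. Alg8, which adds the following glucose, had 11.4 and 6.21 TPM in exRNaseA libraries, against 5.78 and 7.88 TPM in mock libraries. The wide spread of Alg8 was less marked in its counts, which were 178 and 159 in exRNaseA libraries, against 145 and 149 in mock libraries. The effective transcript length that the authors' program assigned to Alg8 was 1079 and 1617 bases in exRNaseA libraries, against 1497 and 1291 bases in mock libraries. That length follows the estimated mix of transcripts, and TPM of Alg8 was highest in the library where it was shortest. Alg14 had the largest such swing, 1.99-fold between libraries, and 6 of the 38 genes swung by over 1.2-fold.

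Some genes of the ER are raised by the unfolded protein response, which acts when unfolded proteins build up there, through an ER stress response element. That element, CCAAT followed after 9 bases by CCACG, was searched on both strands of RefSeq promoter windows (250 bases before to 50 after the start, GRCm38.p6). Windows were at hand for 29 of the 38 genes. It was found in 1 of these, Alg12, which is 3.45% of them, against 0.137% of 27025 genes with a window. The shorter TGACGTGG was in 0 of the 29, against 0.714% of all genes. A match of letters is a description and not a bound site. The stretch of Alg12 is shown because it holds the element, in capitals, read 5′ to 3′ on the reverse strand at chr15:88819500-88819558, and its first capital lies 220 bases before the start.
Alg12: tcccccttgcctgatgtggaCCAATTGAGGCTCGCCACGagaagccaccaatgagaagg
Alg12 itself had 4.67 and 4.39 CPM in exRNaseA libraries, against 5.61 and 4.79 CPM in mock libraries (log2 change -0.20, SE 0.16, adjusted p = 0.905, edgeR).

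Rpn1 of the shared core and the catalytic Stt3a were the most abundant of the 10 OST genes listed. Ost4, an OST subunit outside that list, was higher. Rpn1 (ENSMUSG00000030062.7, chromosome 6, 88084473 to 88105304, GRCm38.p6), a ribophorin of the core, had 69.7 and 72.0 TPM in exRNaseA libraries, against 77.5 and 68.4 TPM in mock libraries. Rpn2, the other ribophorin, had 41.5 and 44.0 TPM in exRNaseA libraries, against 43.1 and 44.8 TPM in mock libraries. Rpn1 was therefore above its partner by 1.53- to 1.80-fold in each library. Ddost, a core subunit that stabilises the complex, had 29.3 and 28.7 TPM in exRNaseA libraries, against 26.7 and 25.3 TPM in mock libraries. Dad1, a small core subunit first known as a defender against cell death, had 19.5 and 21.3 TPM in exRNaseA libraries, against 17.6 and 19.9 TPM in mock libraries. Ddost was the only one of these 4 whose groups did not overlap on the TPM scale, where 36.1% of all tested genes had no overlap.

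Stt3a and Stt3b are alternative catalytic subunits: Stt3a glycosylates proteins as they enter the ER, and Stt3b acts afterwards on sites that were missed. Stt3a (ENSMUSG00000032116.18, chromosome 9, 36729344 to 36767622, GRCm38.p6) had 62.5 and 75.3 TPM in exRNaseA libraries, against 71.8 and 64.2 TPM in mock libraries. Stt3b (ENSMUSG00000032437.10, chromosome 9, 115242470 to 115310468, GRCm38.p6) had 40.3 and 40.4 TPM in exRNaseA libraries, against 39.0 and 38.9 TPM in mock libraries. Stt3a was higher per length in all 4 libraries, by 1.55- to 1.87-fold. In counts without a correction for length the order turned, with a mean log2 ratio of Stt3a to Stt3b of -0.25, against 0.78 for TPM. The accessory subunits of the Stt3a complex are Ostc and Krtcap2. Ostc had 40.9 and 38.1 TPM in exRNaseA libraries, against 39.2 and 45.1 TPM in mock libraries. Krtcap2 had 10.6 and 10.8 TPM in exRNaseA libraries, against 13.2 and 12.3 TPM in mock libraries, without overlap.

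The Stt3b complex takes either Magt1 or Tusc3, oxidoreductases that hold substrate proteins. Both were transcribed here. Magt1, on the X chromosome, had 13.97 and 14.70 TPM in exRNaseA libraries, against 15.97 and 13.79 TPM in mock libraries. Tusc3 had 4.70 and 3.73 TPM in exRNaseA libraries, against 4.41 and 5.74 TPM in mock libraries. Magt1 exceeded Tusc3 by 2.402- to 3.941-fold, and the 2 groups overlapped in that ratio.

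Trimming genes lay in a narrow middle band, with means between 11.2 and 40.6 TPM. Mogs, the glucosidase that removes the outermost glucose, was the lowest, at 10.40 and 12.01 TPM in exRNaseA libraries, against 11.4 and 10.9 TPM in mock libraries. Ganab, the catalytic subunit of glucosidase II, had 41.2 and 40.1 TPM in exRNaseA libraries, against 40.4 and 40.9 TPM in mock libraries. Prkcsh, its regulatory subunit, had 18.3 and 18.5 TPM in exRNaseA libraries, against 18.8 and 18.9 TPM in mock libraries. The ratio of Ganab to Prkcsh was the steadiest of the 9 ratios examined, between 2.15 and 2.25.

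The mannosidases were represented by more than 1 gene at each Golgi step. Man1b1, the ER mannosidase, had 36.1 and 32.9 TPM in exRNaseA libraries, against 36.7 and 34.0 TPM in mock libraries. Man1a and Man1a2, Golgi mannosidases of the first trimming step, were close to each other. Man1a had 18.9 and 17.7 TPM in exRNaseA libraries, against 17.8 and 17.4 TPM in mock libraries. Man1a2 had 22.7 and 21.6 TPM in exRNaseA libraries, against 23.1 and 26.9 TPM in mock libraries. Of the later Golgi mannosidase II pair, Man2a1 had 35.35 and 35.02 TPM in exRNaseA libraries, against 33.8 and 33.1 TPM in mock libraries. Man2a2 had 15.79 and 15.04 TPM in exRNaseA libraries, against 15.3 and 15.4 TPM in mock libraries. Man2a1 was the higher of its pair by 2.15- to 2.33-fold.

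Branching genes ranged from the third most abundant of the 38 genes to the least. B4galt1, which adds galactose, had 43.6 and 44.7 TPM in exRNaseA libraries, against 43.1 and 44.8 TPM in mock libraries. Mgat1, which opens the path to complex glycans, had 39.8 and 34.2 TPM in exRNaseA libraries, against 37.5 and 38.6 TPM in mock libraries. Mgat2, which starts the other arm, had 20.8 and 19.4 TPM in exRNaseA libraries, against 19.82 and 19.96 TPM in mock libraries. Mgat1 was above Mgat2 by 1.77- to 1.93-fold. Mgat4a and Mgat4b make the same further branch. Mgat4a had 31.6 and 32.6 TPM in exRNaseA libraries, against 37.1 and 29.5 TPM in mock libraries. Mgat4b had 6.35 and 5.88 TPM in exRNaseA libraries, against 6.11 and 6.57 TPM in mock libraries. The pair was the most uneven of the 9, at 4.49- to 6.08-fold.

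Mgat5, which makes the branch that carries long lactosamine chains, had 10.7 and 11.9 TPM in exRNaseA libraries, against 9.74 and 10.2 TPM in mock libraries. Fut8, the core fucosyltransferase, had 19.5 and 21.1 TPM in exRNaseA libraries, against 18.95 and 20.69 TPM in mock libraries. Mgat3, which adds the bisecting N-acetylglucosamine, was nearly absent from the libraries. Its counts were 3 and 0 in exRNaseA libraries, against 1 and 0 in mock libraries, so no fold was computed. A count of 0 allows up to 3 counts, which is 0.131 CPM (counts scaled to a common library size) in exRNaseA library 2 and 0.144 CPM in mock library 2. This floor covers counting error only.

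Ordered by mean TPM, 29 of the 37 neighbouring pairs overlapped in their 4-library ranges, so most adjacent ranks cannot be separated. The gaps without overlap include those from Stt3a to B4galt1, from Mgat4a to Ddost, from Magt1 to Krtcap2 and from Mgat5 to Alg5. These gaps hold between neighbours in the order, and Alg8, at 5.78 to 11.4 TPM, reached into the range of Mgat5, at 9.74 to 11.9 TPM. The 15 genes under a mean of 10 TPM were the 12 assembly genes with Mgat4b, Tusc3 and Mgat3.

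**Figure D2:**
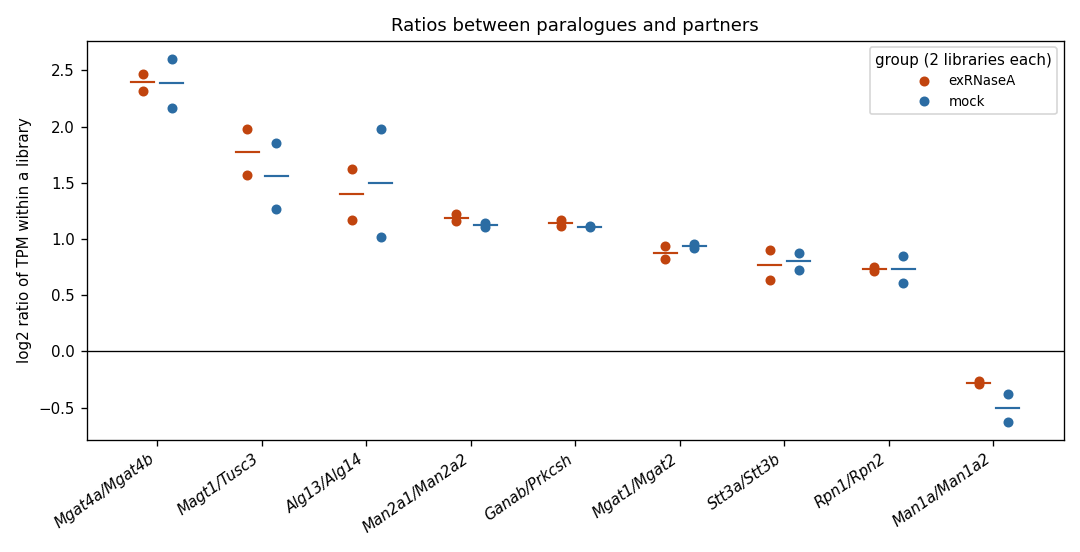
Log2 ratio of TPM between 9 pairs of paralogues or partner subunits within each library, with 2 exRNaseA points left of 2 mock points and lines at the group means. Mgat4a over Mgat4b is the most uneven pair, Ganab over Prkcsh the steadiest, and Man1a over Man1a2 the only ratio below 0.

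For 3 of these 9 ratios the groups did not overlap, a share close to the 36.1% of all tested genes without overlap in TPM. Man1a to Man1a2 had a mean log2 ratio of -0.28 in exRNaseA libraries and -0.50 in mock libraries. Man2a1 to Man2a2 had 1.19 in exRNaseA libraries and 1.13 in mock libraries, and Ganab to Prkcsh 1.14 in exRNaseA libraries and 1.11 in mock libraries. In counts without a correction for length, Man1a to Man1a2 and Ganab to Prkcsh overlapped and Man2a1 to Man2a2 was lower in exRNaseA libraries, while Mgat4a to Mgat4b was higher without overlap. An exact two-sided permutation test of 2 against 2 libraries cannot go below p = 0.333, so none of these could pass a threshold of 0.05.

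The comparison of exRNaseA with mock libraries asked whether RNase A outside the cells changed cellular RNA, and for N-glycan genes no difference passed the test. Of the 37 genes with enough counts to be tested, 0 were called, against 0.0917% of all 14184 tested genes (edgeR's quasi-likelihood test, adjusted p under 0.05). At an unadjusted p under 0.05 there were also 0 of 37, against 901 of 14184 genes. DESeq2 and limma called 0 as well. Mgat3 did not reach the expression filter. The median log2 change was -0.02 over the 37 genes and -0.00 over all tested genes. Of the 37 genes 13 were positive and 24 negative, against 7073 positive and 7111 negative of all tested genes. Whether this differs from the share over all genes was not tested. The median absolute log2 change was 0.06 over the 37 genes and 0.07 over all tested genes.

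The lowest unadjusted p was 0.0526, for Ddost. In CPM, its level was 39.5 and 37.99 in exRNaseA libraries, against 36.6 and 34.5 in mock libraries, without overlap. Its log2 change was 0.12 (SE 0.06, 95% interval -0.00 to 0.25, adjusted p = 0.780, edgeR). Mogs followed, with 18.7 and 20.4 CPM in exRNaseA libraries, against 17.1 and 18.3 CPM in mock libraries, and a log2 change of 0.15 (SE 0.09, adjusted p = 0.809, edgeR). Mogs did not overlap in CPM but overlapped in TPM. The most negative value was that of Krtcap2, with 4.14 and 4.48 CPM in exRNaseA libraries, against 5.35 and 4.99 CPM in mock libraries (log2 change -0.26, SE 0.16, adjusted p = 0.845, edgeR). Tusc3 had a log2 change of -0.26, with overlapping groups, and Alg8 had the most positive, 0.21, also with overlapping groups. With 1 library left out, Tusc3 ran from -0.46 (without exRNaseA library 1) to -0.07 (without mock library 2), and Alg8 from 0.05 (without exRNaseA library 1) to 0.36 (without exRNaseA library 2). In each of these 5 genes the adjusted p was 0.780 or above.

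Groups that do not overlap were common among all genes. In CPM, 14 of the 37 genes had no overlap, 5 higher and 9 lower in exRNaseA libraries, which is 37.8%, against 35.7% of all tested genes. The higher ones were Ddost, Mogs, Mgat5, Man2a2 and Man2a1. The lower ones were Krtcap2, Alg9, Rpn2, Alg12, Man1b1, Alg2, Mgat4b, B4galt1 and Prkcsh. Among these 14 the log2 changes ran from -0.26 to 0.15. In TPM 7 of the 37 tested genes had no overlap, which is 18.9%, against 36.1% of all tested genes. Stt3b, Man2a1, Ddost and Mgat5 were the 4 higher ones, and Man1a2, Prkcsh and Krtcap2 the 3 lower ones. Man1a2 overlapped in CPM, and its effective length differed by 1.301-fold between libraries.

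**Figure D3:**
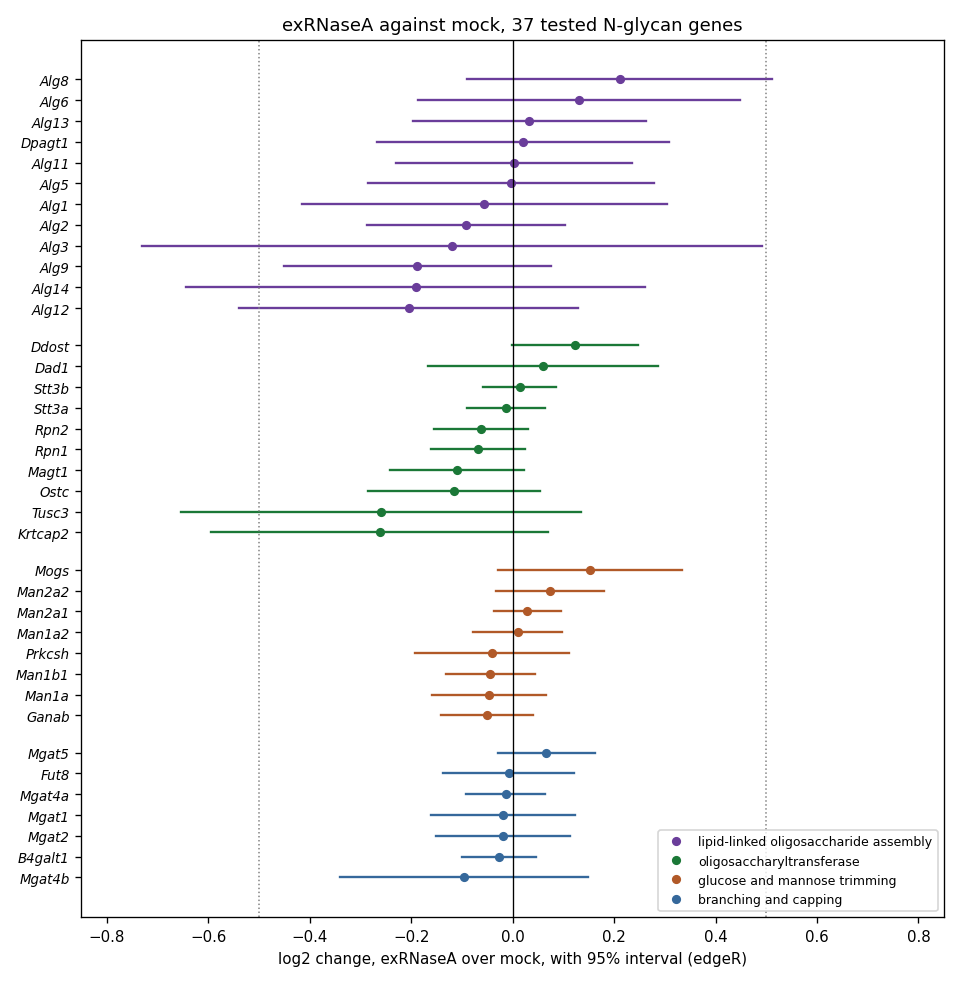
Log2 change of exRNaseA over mock libraries for the 37 tested genes, with 95% intervals as bars, colours for the 4 roles and dotted lines at ±0.5. All intervals include 0, and 6 of them, Alg8, Alg3, Alg14, Alg12, Tusc3 and Krtcap2, cross a dotted line.

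How large a change these libraries leave room for depended on depth and on the spread between them. Beyond counting error, edgeR's common coefficient of variation was 0.0244. The intervals cover the spread between these libraries, for which separate animals are not named. For 31 of the 37 genes, or 83.8%, the 95% interval of the log2 change stayed inside ±0.5, or 1.41-fold, against 67.2% of all tested genes. It did so for 24 of 24 N-glycan genes with a mean of at least 10 CPM, against 99.5% of all such genes. The 13 genes with a mean of 1000 counts or more had half-widths between 0.07 and 0.11. Stt3a and Stt3b are among them, with log2 changes of -0.01 (95% interval -0.09 to 0.06) and 0.01 (95% interval -0.06 to 0.09). Man2a1, the most deeply counted at a mean of 3545 counts, had a log2 change of 0.03 (95% interval -0.04 to 0.09). B4galt1 had -0.03 (95% interval -0.10 to 0.05).

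The 12 genes with 200 to under 1000 counts had half-widths up to 0.23. The 12 tested genes under 200 counts had half-widths between 0.24 and 0.61, and 9 of them are assembly genes. Alg3, with 37 and 40 counts in exRNaseA libraries, against 34 and 50 counts in mock libraries, had the widest interval, -0.73 to 0.49. The interval of Alg8 reached above 0.5, and those of Alg3, Alg14, Alg12, Tusc3 and Krtcap2 reached below -0.5. For these genes a change of that size in that direction was not excluded.

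**Figure D4:**
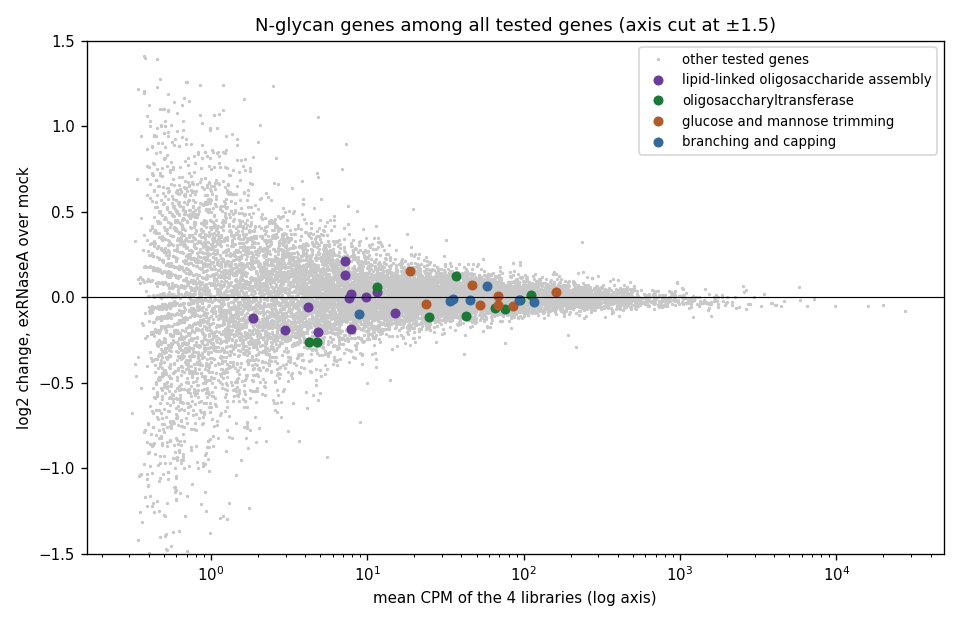
Log2 change of exRNaseA over mock libraries against mean CPM on a log axis for all tested genes in grey and the 37 N-glycan genes in colour by role. The N-glycan genes lie between -0.26 and 0.21, and 39 of all tested genes lie outside the axis at ±1.5.

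By role, the 12 assembly genes had log2 changes from -0.20 to 0.21 with a median of -0.03. The 10 OST genes ran from -0.26 to 0.12 with a median of -0.07. The 8 trimming genes ran from -0.05 to 0.15 with a median of -0.02. The 7 tested branching and capping genes ran from -0.10 to 0.07 with a median of -0.02. Shared OST core genes had values of both signs, with Rpn1 at -0.07 (SE 0.04), Rpn2 at -0.06 (SE 0.04) and Dad1 at 0.06 (SE 0.11). Magt1 stood at -0.11 (SE 0.06) and Ostc at -0.12 (SE 0.08), each with overlapping groups.

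Lists of neighbouring steps held no called gene either. Of 28 genes that supply dolichol and sugar donors, 28 were tested and 0 were called (median log2 change 0.01). Ugp2, which makes UDP-glucose, was the most abundant, at 116 and 106 TPM in exRNaseA libraries, against 112 and 110 TPM in mock libraries. Ugdh, which oxidises UDP-glucose, had 57.2 and 72.7 TPM in exRNaseA libraries, against 62.5 and 70.1 TPM in mock libraries. Dpm1, the catalytic subunit of dolichol phosphate mannose synthase, had 48.4 and 46.8 TPM in exRNaseA libraries, against 51.0 and 38.8 TPM in mock libraries. Dolpp1, a dolichyl diphosphate phosphatase that recycles the lipid carrier, had the smallest p of the list, with a log2 change of 0.45 (adjusted p = 0.609, edgeR). It stood at 5.05 and 5.39 TPM in exRNaseA libraries, against 4.93 and 4.22 TPM in mock libraries. The list's median level was 12.6 TPM, above the 4.87 TPM of the assembly genes that use its products.

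Of 17 other N-glycan enzymes and OST subunits, 13 were tested and 0 were called (median log2 change -0.02). St3gal6, a sialyltransferase, had 130 and 115 TPM in exRNaseA libraries, against 128 and 127 TPM in mock libraries. Ost4, a very small OST subunit, had 94.8 and 106 TPM in exRNaseA libraries, against 97.8 and 104 TPM in mock libraries. B4galt3, a further galactosyltransferase, stood at 51.8 and 52.7 TPM in exRNaseA libraries, against 50.3 and 53.8 TPM in mock libraries, above B4galt1 in each. St6gal1, the sialyltransferase with the smallest p of the list, had 13.5 and 12.7 TPM in exRNaseA libraries, against 14.04 and 14.63 TPM in mock libraries (log2 change -0.16, adjusted p = 0.699, edgeR). Mgat4d and Mgat5b were listed at 0 in all 4 libraries.

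Of 23 lectin chaperones and factors of glycan-directed ER quality control, 0 were called (median log2 change -0.00). At an unadjusted p under 0.05 (edgeR) there were 4 of the 23, against 901 of all 14184 tested genes. The dolichol and sugar donor list, the list of other N-glycan enzymes and the unfolded protein response list had 1 each. Calr and Canx, the lectins that hold trimmed glycoproteins during folding, stood well above the trimming genes. Calr had 279 and 288 TPM in exRNaseA libraries, against 282 and 277 TPM in mock libraries. Canx had 133 and 132 TPM in exRNaseA libraries, against 125 and 131 TPM in mock libraries (log2 change 0.06, adjusted p = 0.753, edgeR). Pdia3, the disulfide isomerase that works with them, had 123 and 118 TPM in exRNaseA libraries, against 120 and 117 TPM in mock libraries. Syvn1, a ubiquitin ligase for misfolded ER proteins, the gene of that list with the smallest p, had 30.4 and 35.1 TPM in exRNaseA libraries, against 28.0 and 27.5 TPM in mock libraries (log2 change 0.14, adjusted p = 0.628, edgeR).

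The unfolded protein response, which raises chaperone genes when the ER is overloaded, had 17 genes tested and 0 called (median log2 change -0.00). Hspa5, its classical chaperone target, had 348 and 342 TPM in exRNaseA libraries, against 351 and 354 TPM in mock libraries (log2 change -0.04, adjusted p = 0.841, edgeR). Hsp90b1, another ER chaperone, had 195 and 202 TPM in exRNaseA libraries, against 194 and 202 TPM in mock libraries. Atf4, a transcription factor of the response, had 361 and 352 TPM in exRNaseA libraries, against 361 and 370 TPM in mock libraries (log2 change -0.07, adjusted p = 0.724, edgeR).

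Counting could blur a few of these values. Expected counts were whole, within 0.005, in all 4 libraries for 33 of the 38 genes. They were not whole for Alg1, Alg9, Man2a2, Mgat5 and Rpn2. RSEM gives such values where it splits reads that match more than 1 place, so these are less certain. In RefSeq 15 of the 38 genes overlap another gene in span, among them Krtcap2 with Trim46, Alg1 with Eef2kmt and Rpn2 with Mroh8, and without a stated strand setting reads from such overlaps cannot be told apart.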

How the data were processed

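The RNA-seq values are 1 file per library, with STAR 2.4.2a, RSEM 1.3.3 and mm10 named in the submitters' processing notes. The deposited expected counts, TPM and FPKM are the columns of RSEM's gene table, per the file headers; annotation release and strand setting are not given in the sources used here. FPKM was not used further. Of 55536 genes, 55450 had a symbol. Coordinates are RefSeq GRCm38.p6, which is mm10. For 9 small RNA libraries the values are RPM, reads scaled by the authors to library size, per the file headers.

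For testing, the expected counts were rounded. edgeR 4.0.16 (R 4.3.3) kept 14184 genes with filterByExpr, scaled by TMM (factors 0.993 to 1.01) and compared exRNaseA with mock by the quasi-likelihood test across all genes, with Benjamini-Hochberg adjustment at 0.05. Intervals came from the log2 change and its F value. TPM was read as deposited. The test was checked on simulated data. Alternatives were DESeq2 1.42.0, limma 3.58.1 on log2(TPM + 1) and log2(TPM + 0.1) for genes at a mean of 1 TPM or more, other scalings and filters, the replicate block and each library left out. The members and lists were chosen with earlier results of these data known. The rule for names was all 38 members, the 3 most abundant genes of each other list and, for pathway lists, the gene with the smallest p. Marker lists are given here as sums, with S100a9, Igkc, Ly6c2, Csf1r, Prg2 and Myb as examples. A planned comparison of protein sequences was not run.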

Additional observations from a re-analysis of the deposited data

Results flagged for a closer look

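The small RNA table lists 3226 genome-mapped sequences, and 1 of them lies within an N-glycan gene. It is 17 bases long, on the forward strand at chr9:44327086-44327102 (mm10) inside Dpagt1, and it was looked at because a signal appeared there in data outside the gene comparison. The sequence as listed is tttgatcggctcgctgt. It stood at 14.5 RPM in the library of RNA purified with the lectin WGA from differentiated HOXB8 cells. HOXB8 is a mouse myeloid progenitor line, and these cells had been differentiated from it. The smallest value above 0 in that library is 0.117 RPM. The sequence was at 0 RPM in the other 8 libraries, the matching input included. Being at 0 RPM in the other 8 libraries, it is in the table only through the library where it is high. The contrast with those 8 libraries is therefore a description and no support for a difference. With 1 library per group there is no replicate check. A sequence this short can match more places than the one listed, so its origin in Dpagt1 is uncertain.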

How the results depend on the processing

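The number of N-glycan genes called was 0 in each of the 12 alternatives, with adjusted p-values of 0.519 or above. Calls over all genes were 13 in the main test, 149 without a filter, 7 at 10 CPM or more, 8 by DESeq2, 7 by limma on log2(TPM + 1), 8 by limma on log2(TPM + 0.1), 55 with the replicate block, and 9 to 74 when a library was left out. Whether same-numbered libraries were paired was not settled. Their deviations from the group means correlated at 0.0479 over 7828 genes. Counting error also enters these deviations, so a value near 0 cannot exclude a pairing. The median log2 change of the N-glycan genes was -0.0195. It was -0.0013 under total count scaling, 0.0022 and 0.0017 by the 2 limma fits, and -0.0496 to -0.0047 with a library left out. The number of genes with an interval within ±0.5 was 28 to 32 with a library left out, and 24 of the 24 kept at 10 CPM or more.

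Of 431 log2 changes of single genes, 52 changed sign, 16 of them by more than the standard error, and none was called. By limma on log2(TPM + 1) and log2(TPM + 0.1), Man1a stood at 0.0527 and 0.0553, Man1a2 at -0.1613 and -0.1673, Alg14 at 0.0665 and 0.0951, and Ganab at 0.0015 in both. With a library left out, Alg6 ran from -0.1032 to 0.3457, Man1a from -0.1133 to 0.0213, Mgat1 from -0.1426 to 0.103, Mgat2 from -0.0815 to 0.0443 and Ganab from -0.1112 to 0.0134. Dpagt1 ran from -0.1455 to 0.1928, Alg5 from -0.1334 to 0.1531 and Alg3 from -0.4587 to 0.2839. Without a change of sign, Tusc3 ran from -0.4612 to -0.0684 and Alg8 from 0.0523 to 0.3624. The cause of these changes was not tested. The log2 ratio of Stt3a to Stt3b was -0.25 without length correction, which is how that value is built. Depth limits what can be said of the genes under 200 counts, 9 of which are assembly genes.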
